A study of Mus musculus with 4 samples.

Results

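The genes described here move zinc across membranes or bind it in liver: 6 importers of the Slc39a family (Slc39a1, Slc39a4, Slc39a5, Slc39a7, Slc39a8 and Slc39a14), 2 exporters of the Slc30a family (Slc30a1 and Slc30a10), and the metallothionein genes Mt1 and Mt2. They were taken by symbol, and every probe set annotated to them was kept, which gave 17 of 45037 probe sets and 10 of 18193 genes. The list was chosen by role but on earlier results for the difference between Baf60a LKO and WT in these same arrays, so its levels and differences are given as a description. Livers came from C57BL/6 mice with a liver deletion of Baf60a (called Baf60a LKO) and from wild-type (WT) mice. Both genotypes received a high-fat diet for 10 weeks from 6 weeks of age and were fasted overnight before the liver was taken. Each genotype had 2 Affymetrix whole-genome mouse arrays, each with its own RNA pool, and neither the number of mice in a pool nor the driver of the deletion is given in the sources used here. BAF60a is the product of Smarcd1 and belongs to SWI/SNF, which remodels chromatin, and the study's title places it in bile acid and cholesterol metabolism.

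Cells keep free zinc very low. Slc39a (ZIP) proteins bring zinc into the cytosol from outside or from organelles, Slc30a (ZnT) proteins carry metal the other way, and metallothioneins, small cysteine-rich proteins, hold it in the cytosol. When zinc rises, the zinc-sensing factor MTF1 switches on Mt1, Mt2 and Slc30a1 through metal response elements in their promoters. In liver the metallothioneins also respond to glucocorticoids and to interleukin-6 (IL-6), and several of these transporters carry manganese, iron or cadmium as well.

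The arrays were checked before the genes were compared. Median log2 values lay between 4.19 and 4.27. Of 6 hepatocyte markers 3 were higher and 3 lower in Baf60a LKO, with a median difference of 0.015. The WT pools differed more from each other: the difference between replicate arrays had a standard deviation over probe sets of 0.21 in Baf60a LKO and 0.33 in WT. As a gauge of background, 41 probe sets for bacterial transcripts had 95th percentiles of 3.02 to 3.42. Probe sets for phage Cre, the recombinase used for such deletions, read higher in Baf60a LKO, the clearest at 5.87 and 6.22 against 2.80 and 2.48 in WT. Smarcd1 stood at 5.34 and 5.30 in Baf60a LKO and at 5.62 and 5.88 in WT, a log2 difference of -0.43 ± 0.14 (limma, p adjusted by Benjamini-Hochberg over all genes = 0.410). Where its probes lie relative to the deletion was not determined, so this does not check the labels.

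Of the importers, Slc39a4 stood out. It encodes ZIP4, the importer that takes up dietary zinc at the apical surface of the intestine and whose loss causes the human zinc deficiency acrodermatitis enteropathica. Its single probe set read 4.27 and 4.38 in Baf60a LKO, against 6.66 and 7.11 in WT. The groups were far apart, and the gap between genotypes was several times the gap between pools. The means were 4.32 ± 0.073 in Baf60a LKO and 6.88 ± 0.32 in WT (SD, n = 2 each), a log2 difference of -2.56 ± 0.18 (standard error of the limma fit), or 5.89-fold lower. This was the 20th largest negative difference among 18193 genes. Leaving out 1 array gave differences of -2.78 to -2.34, and with any 1 array left out the gene was no longer past an adjusted p of 0.05. The Baf60a LKO values lay above the 95th percentile of the bacterial probe sets on the same arrays, 3.02 and 3.12, and below the highest of them, 5.47 and 5.49. In bulk liver, fewer cells of a type and less RNA per cell cannot be told apart.

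**Figure D1:**
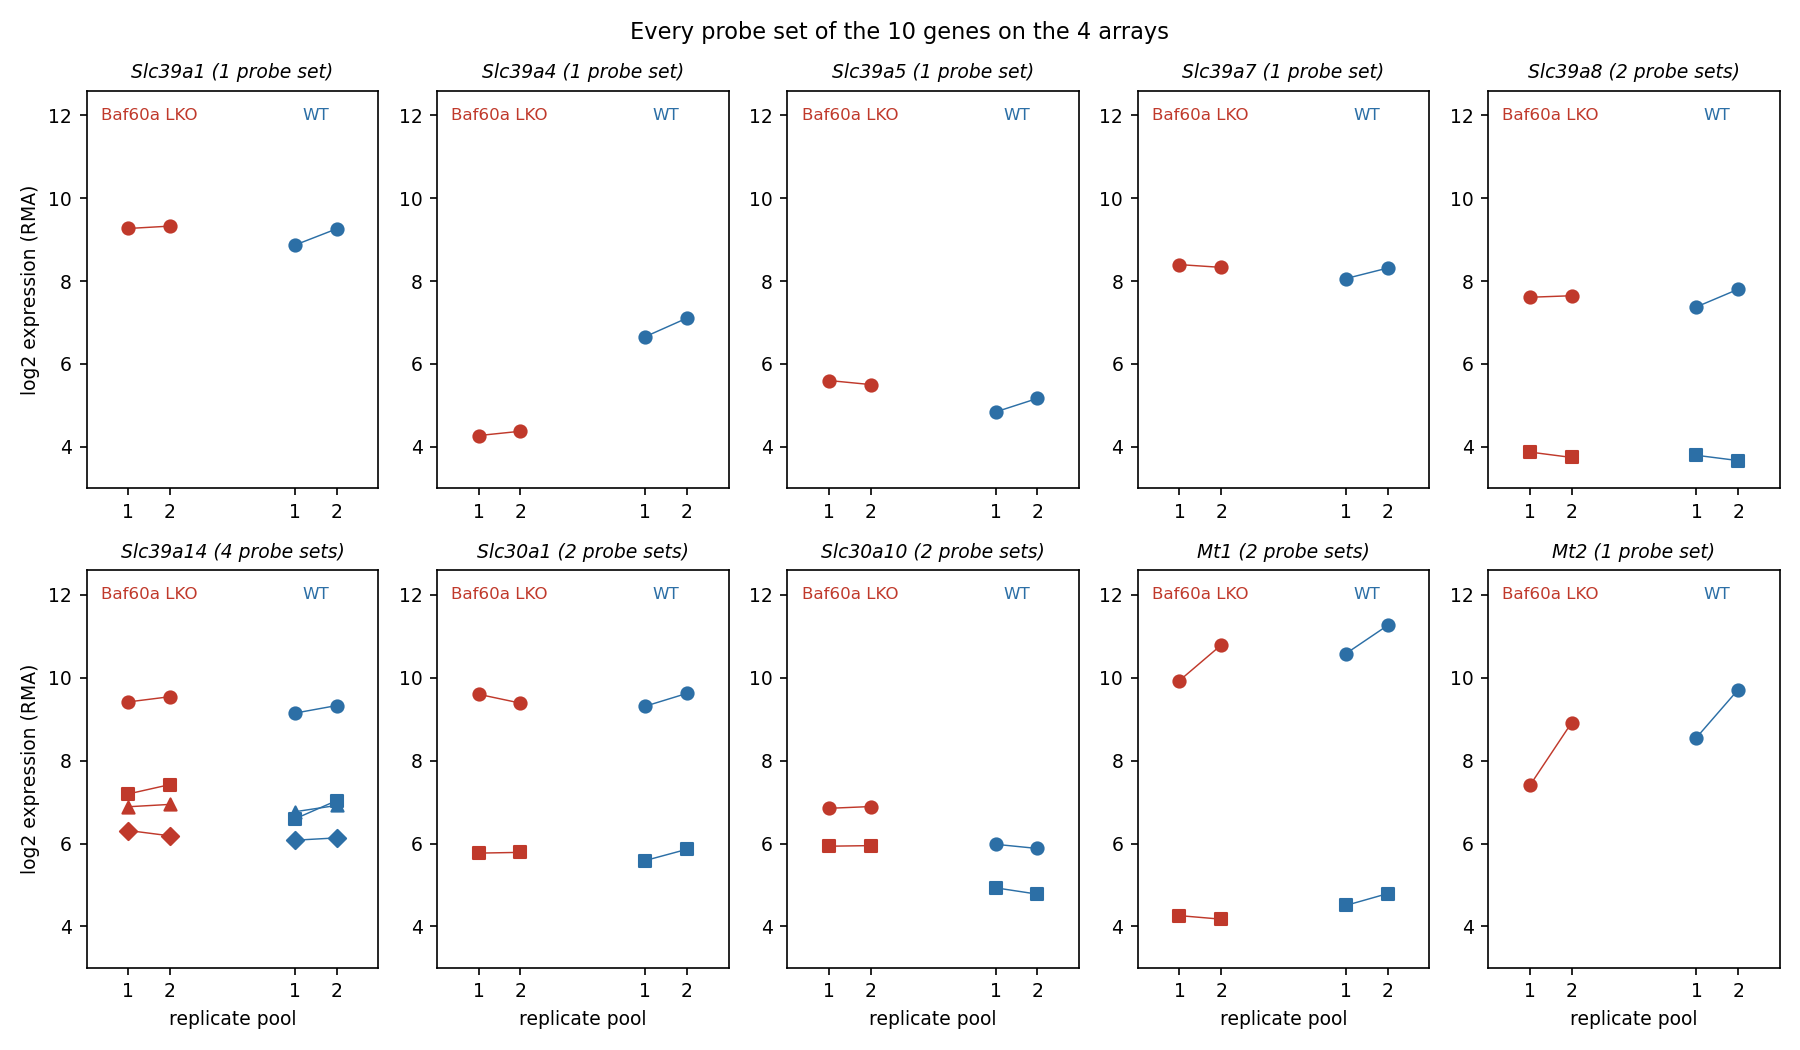
Log2 expression of every probe set of the 10 genes (y axis, the same range in each panel) on each array (x axis, replicate pool), with Baf60a LKO in red on the left and WT in blue on the right; symbols mark probe sets and lines only join the pools of a genotype. Slc39a4 is at 4.27 and 4.38 in Baf60a LKO against 6.66 and 7.11 in WT, and Mt2 spreads as widely within a genotype as between them.

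The genes on either side of Slc39a4 on chromosome 15 had small differences. Cpsf1, which encodes a subunit of the mRNA cleavage and polyadenylation machinery, differed by 0.13 ± 0.15, and Vps28, of the endosomal sorting complex ESCRT-I, by -0.11 ± 0.11 (limma, adjusted p = 0.773 and 0.760). Over the 4 arrays, the genes closest to the Slc39a4 pattern were Wfdc21, Themis and Pparg. Likeness was the root mean square distance between profiles, each centred on its own mean, and it was 0.097, 0.13 and 0.16 log2 units. Wfdc21 read 9.58 on both arrays of Baf60a LKO, against 12.1 and 12.2 in WT. Pparg, the nuclear receptor gene that drives lipid storage, read 5.34 and 5.32 in Baf60a LKO, against 7.35 and 7.84 in WT. With 4 arrays, likeness of pattern says little more than that the genes were lower in Baf60a LKO by a similar amount.

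Slc39a5, whose product ZIP5 sits on the basolateral side of enterocytes and pancreatic acinar cells, was the importer with the largest positive difference. It read 5.60 and 5.50 in Baf60a LKO, against 4.84 and 5.17 in WT. All 4 values lay above the 95th percentiles of the bacterial probe sets. The highest bacterial probe set read 5.47 and 5.49 in Baf60a LKO, just below Slc39a5, and 5.91 and 5.76 in WT, above it. The groups did not overlap, and the difference was 0.55 ± 0.15, or 1.46-fold, with 0.38 to 0.71 when 1 array was left out. Slc39a4 and Slc39a5 thus differed in opposite directions.

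Slc39a14, encoding ZIP14, takes up zinc, iron and manganese into hepatocytes and is induced by IL-6. Its brightest probe set read 9.42 and 9.54 in Baf60a LKO, against 9.15 and 9.33 in WT, a difference of 0.24 ± 0.13. All 4 of its probe sets were higher in Baf60a LKO, by 0.073 to 0.50, and 3 of them without overlap of the groups, as were 19.7% of all probe sets. The widest was the probe set at 7.20 and 7.42 in Baf60a LKO, against 6.60 and 7.04 in WT.

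The remaining importers differed little. Slc39a1, which encodes a plasma membrane zinc importer, read 9.27 and 9.33 in Baf60a LKO, against 8.87 and 9.26 in WT, a difference of 0.23 ± 0.16 that was 0.038 without WT replicate 1 and 0.43 without WT replicate 2. Slc39a7, whose product releases zinc from the endoplasmic reticulum and Golgi, read 8.40 and 8.33 in Baf60a LKO, against 8.06 and 8.31 in WT, a difference of 0.18 ± 0.14 that was 0.050 without WT replicate 1 and 0.30 without WT replicate 2. In both genes the groups did not overlap, but WT replicate 2 lay next to the Baf60a LKO arrays. Slc39a8, whose product ZIP8 recovers manganese from bile, read 7.61 and 7.65 in Baf60a LKO, against 7.38 and 7.80 in WT, and the groups overlapped. Its difference of 0.038 ± 0.17 turned to -0.17 without WT replicate 1 and to -0.059 and -0.058 after quantile and loess normalization, and was 0.25 without WT replicate 2. The other Slc39a8 probe set was dim, at 3.87 and 3.74 in Baf60a LKO and 3.80 and 3.67 in WT.

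WT replicate 1 read lower than each other array at 6 of the 10 genes, namely Slc39a1, Slc39a5, Slc39a7, Slc39a8, Slc39a14 and Slc30a1, and at 36.0% of all genes. The median difference of the 10 genes was 0.11 with all arrays, -0.045 without WT replicate 1 and 0.28 without WT replicate 2. Leaving out an array picked for its low values lowers the difference by construction, so its part in the small positive differences was not tested.

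Between the exporters the results parted. Slc30a10 encodes ZnT10, which despite its family name is known mainly as a manganese exporter that passes manganese from hepatocytes into bile. Its brighter probe set read 6.85 and 6.89 in Baf60a LKO, against 5.98 and 5.88 in WT. The other probe set read 5.94 and 5.95 in Baf60a LKO, against 4.93 and 4.78 in WT. Pools of a genotype lay close together, and the groups did not overlap on either probe set. The differences were 0.94 ± 0.12 and 1.09 ± 0.13, or 1.92-fold and 2.13-fold. Leaving out 1 array moved the first between 0.89 and 0.99, and quantile and loess normalization gave 0.83 and 0.84. On chromosome 1 its neighbours Eprs, a transfer RNA synthetase gene, and Lyplal1, a lysophospholipase-like gene, differed by 0.27 ± 0.14 and 0.15 ± 0.14 (limma, adjusted p = 0.563 and 0.735).

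Slc30a1, encoding the plasma membrane zinc exporter ZnT1 and a classical MTF1 target, had groups that overlapped. It read 9.60 and 9.39 in Baf60a LKO, against 9.32 and 9.62 in WT, and its other probe set 5.77 and 5.79 in Baf60a LKO, against 5.59 and 5.86 in WT. This held on both probe sets. The difference was 0.026 ± 0.16. Its sign turned in 4 of 12 alternatives, some of which cannot change a difference, only its error or the genes compared. After quantile and loess normalization the difference was -0.012 and -0.043. It was -0.080 and -0.13 without Baf60a LKO replicate 1 and without WT replicate 1, and 0.13 and 0.18 without the other arrays.

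**Figure D2:**
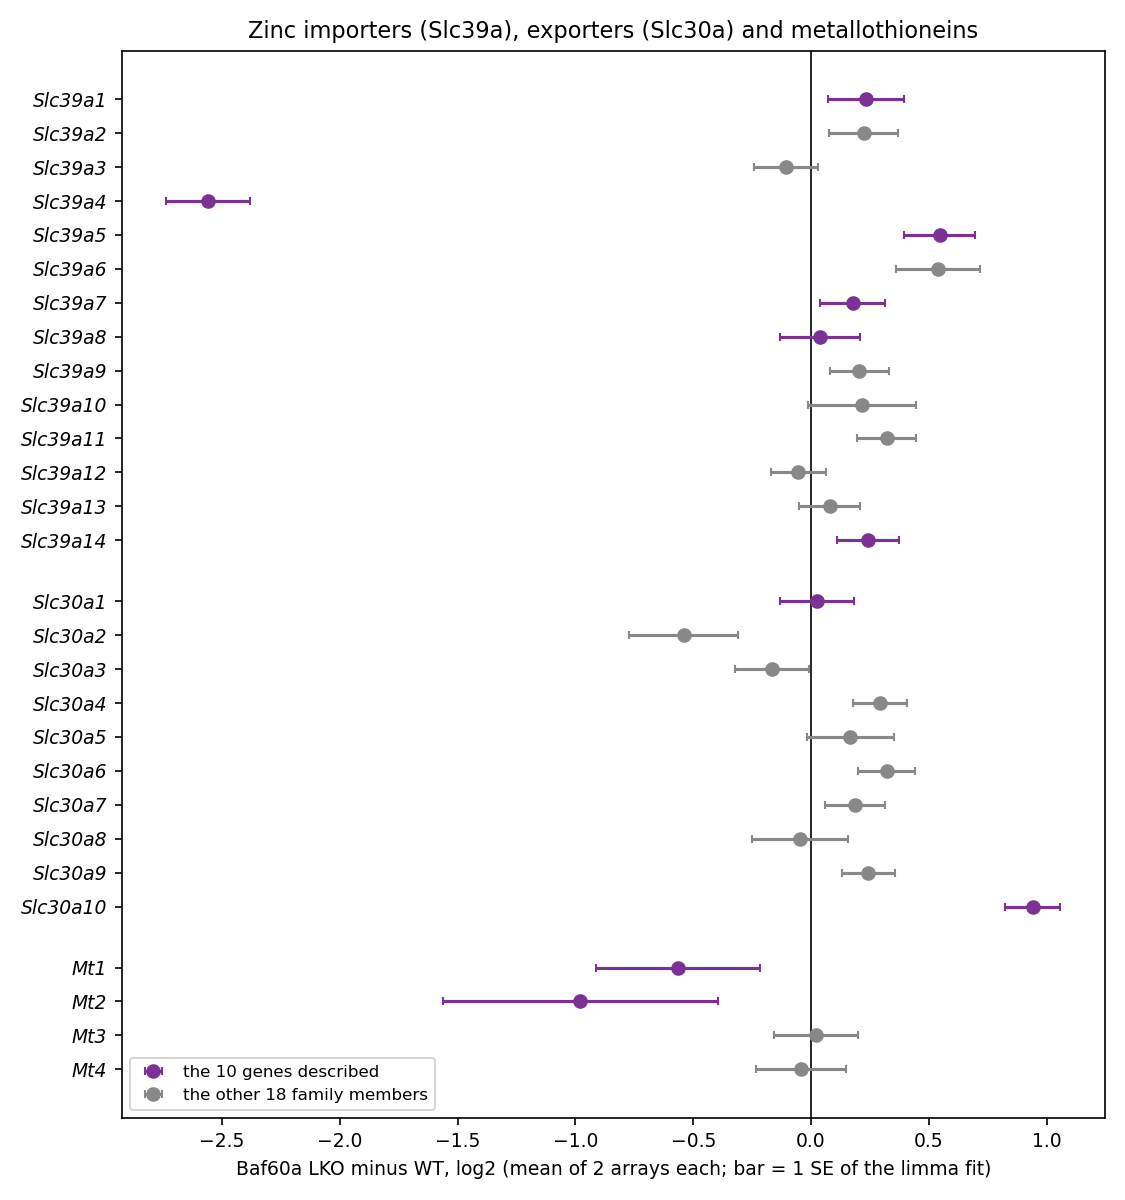
Difference between Baf60a LKO and WT on the log2 scale (x axis) for each Slc39a, Slc30a and metallothionein gene on the arrays (y axis); points are differences of means of 2 arrays a group and bars 1 standard error of the limma fit. Slc39a4 at -2.56, Mt2 at -0.98 and Slc30a10 at 0.94 lie farthest from 0, and Mt2 and Mt1 have the widest bars.

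Markers of cells that also express such transporters were read beside these values. Cholangiocyte markers were higher in Baf60a LKO in 6 of 6 measured, none past the threshold (4 at an unadjusted limma p under 0.05, as were 10.2% of all genes), and their summed level on the linear scale was 187 and 258 in Baf60a LKO against 106 and 131 in WT. Of these, Epcam and Pkhd1 differed by 1.17 ± 0.21 and 1.34 ± 0.30. Their part in the higher Slc30a10 and Slc39a5 values, and in the lower Slc39a4 values, was not tested. Of 5 enterocyte markers measured, only Vil1 was higher, at 4.77 and 4.46 in Baf60a LKO against 3.83 and 3.71 in WT, and the list summed to 2281 and 2176 in Baf60a LKO against 2502 and 2543 in WT. That sum was almost all Fabp2, a fatty acid binding protein gene, at 11.1 on both Baf60a LKO arrays against 11.3 on both WT arrays. Alpi, Cdh17 and Lct, which define the intestinal lining, stayed between 2.38 and 3.01, below the 95th percentile of the bacterial probe sets on each array. Of 6 pancreatic acinar markers 2 were higher and 4 lower, with sums of 513 and 530 in Baf60a LKO against 505 and 453 in WT. Most of that sum was Cela1, an elastase gene, at 8.83 and 8.91 in Baf60a LKO against 8.77 and 8.64 in WT. Cela3b read 4.25 and 3.94 in Baf60a LKO against 4.74 and 4.18 in WT, and Cpb1, Ctrb1, Cpa1 and Prss2 read 1.91 to 3.78.

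The metallothioneins were both lower on average in Baf60a LKO, with wide spread between pools. Their promoters are shown because metal response elements are the sites through which zinc acts on these genes, and those of Slc30a1 and Slc30a10 because the exporters parted. The sequences are from RefSeq, 5′ to 3′ in the direction of the gene, with 250 bases before the annotated start and 30 after it. Capitals mark matches to the core TGCACNC or TGCGCNC, searched on both strands, and neighbouring matches can overlap.
Mt1 promoter, chr8:94178839-94179118, GRCm38.p6, + strand: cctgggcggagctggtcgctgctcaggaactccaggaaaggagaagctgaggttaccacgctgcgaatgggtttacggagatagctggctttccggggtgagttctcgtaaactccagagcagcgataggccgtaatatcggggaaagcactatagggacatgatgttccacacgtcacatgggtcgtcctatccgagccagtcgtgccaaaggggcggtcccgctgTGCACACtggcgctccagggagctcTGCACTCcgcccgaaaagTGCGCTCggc
Mt2 promoter, chr8:94172368-94172647, GRCm38.p6, + strand: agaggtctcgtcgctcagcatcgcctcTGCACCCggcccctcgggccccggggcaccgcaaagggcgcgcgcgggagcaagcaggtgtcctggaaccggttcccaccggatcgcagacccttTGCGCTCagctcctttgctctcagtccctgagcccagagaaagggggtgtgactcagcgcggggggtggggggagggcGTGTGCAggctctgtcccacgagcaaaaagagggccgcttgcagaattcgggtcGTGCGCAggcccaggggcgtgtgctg
Slc30a1 promoter, chr1:191906531-191906810, GRCm38.p6, + strand: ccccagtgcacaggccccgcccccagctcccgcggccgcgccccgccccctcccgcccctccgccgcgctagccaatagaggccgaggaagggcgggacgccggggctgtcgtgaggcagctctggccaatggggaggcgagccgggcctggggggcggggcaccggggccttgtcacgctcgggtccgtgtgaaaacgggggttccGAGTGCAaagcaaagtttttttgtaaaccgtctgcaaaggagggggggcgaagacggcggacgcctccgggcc
Slc30a10 promoter, chr1:185454598-185454877, GRCm38.p6, + strand: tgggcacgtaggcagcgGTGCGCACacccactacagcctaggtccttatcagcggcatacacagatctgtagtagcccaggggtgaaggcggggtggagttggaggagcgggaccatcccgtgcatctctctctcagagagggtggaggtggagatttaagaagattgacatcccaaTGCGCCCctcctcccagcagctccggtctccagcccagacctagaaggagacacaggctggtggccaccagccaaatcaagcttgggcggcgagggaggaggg
The Mt1 window held 3 matches, all on the forward strand and close together, at -23, 3 and 21 from the start. The Mt2 window held 4, at -223 and -128 on the forward strand and at -50 and 5 on the reverse strand. Slc30a10 held 3, of which those at -233 and -232 overlap on opposite strands, and Slc30a1 held 1 in the stretch shown, at -43, and 1 more at 31. A window was given for 8 of the 10 genes. Slc39a5 and Slc39a8 had 2 windows each, 1 with 1 match and 1 with none. Slc39a1 and Slc39a7 held no match, and Slc39a4 and Slc39a14 had no entry. Among 32851 windows of 300 bases, 25.7% held at least 1 match, 7.11% at least 2 and 1.97% at least 3. A match of letters is a description and not a site shown to be used in these livers.

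Mt1 and Mt2 are neighbours on chromosome 8 and encode the main metallothioneins of liver. The brighter Mt1 probe set read 9.93 and 10.8 in Baf60a LKO, against 10.6 and 11.3 in WT. The groups overlapped, since Baf60a LKO replicate 2 lay above WT replicate 1. The difference was -0.56 ± 0.35, or 1.48-fold lower, and ran from -0.99 without Baf60a LKO replicate 2 to -0.14 without Baf60a LKO replicate 1, with -0.90 and -0.22 without WT replicates 1 and 2. This probe set is of the kind (_s_at) that can read more than 1 transcript. The other Mt1 probe set was dim, at 4.26 and 4.17 in Baf60a LKO against 4.51 and 4.79 in WT, a difference of -0.43 ± 0.15 without overlap.

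Mt2 varied most. It read 7.40 and 8.91 in Baf60a LKO, against 8.56 and 9.71 in WT, and the groups overlapped in the same way as for Mt1. The difference was -0.98 ± 0.58, or 1.97-fold lower. Without Baf60a LKO replicate 1 it was -0.22 and without Baf60a LKO replicate 2 it was -1.73, and -1.56 and -0.40 without WT replicates 1 and 2. Its sign held in all 12 alternatives, as did that of Mt1, but the size rested on which pool was kept. Some of these alternatives cannot change a difference, only its error or the genes compared, so they do not test the sign.

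**Figure D3:**
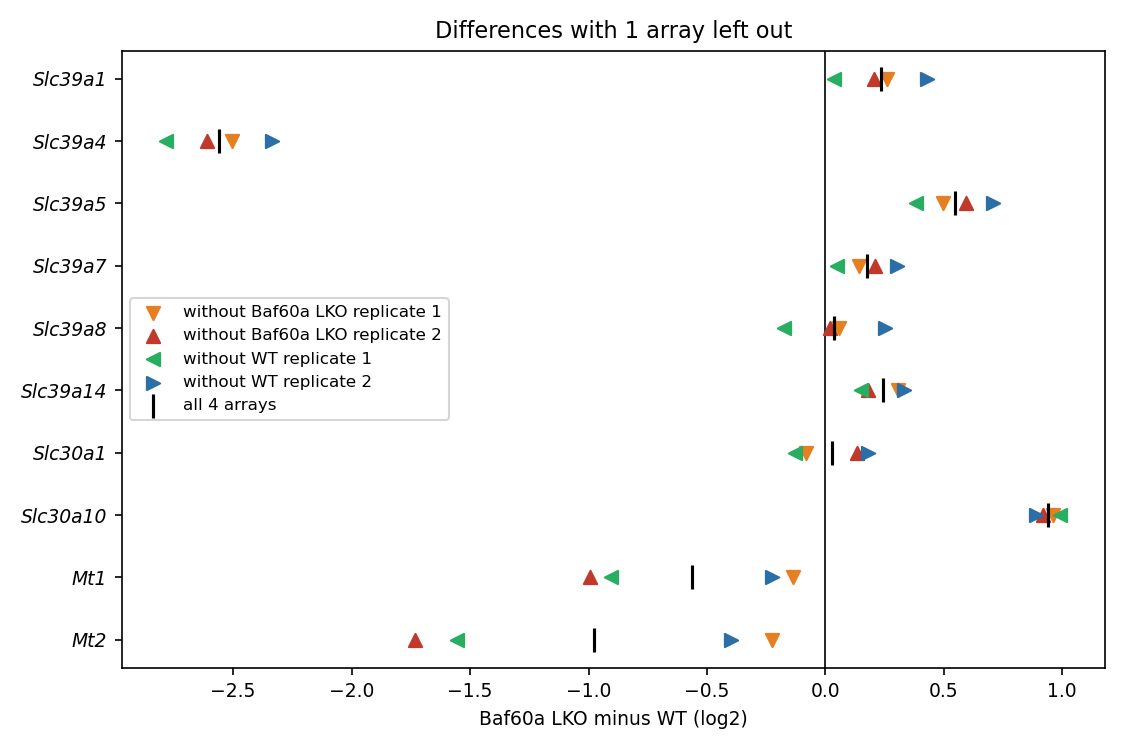
Difference between Baf60a LKO and WT on the log2 scale (x axis) for the 10 genes (y axis) with all 4 arrays (black bar) and with each array left out in turn (coloured triangles). Slc39a4 stays between -2.78 and -2.34 and Slc30a10 between 0.89 and 0.99, while Mt2 runs from -1.73 to -0.22.

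The spread of the metallothioneins within a genotype was itself at the edge of the data. In both genotypes the pool numbered 2 read higher, by 1.51 in Baf60a LKO and 1.16 in WT for Mt2, and by 0.86 in Baf60a LKO and 0.68 in WT for Mt1. The pooled standard deviation between replicates was 0.95 for Mt2 and 0.55 for Mt1, above 99.96% and 99.5% of all genes. It was 0.055 for Slc30a10, higher than only 14.0% of genes, and 0.23 for Slc39a4. No other gene had gaps at least as wide as those of Mt2 in the same direction in both genotypes, and 4 did for Mt1. The genes nearest to Mt1 in pattern were Plscr2, a phospholipid scramblase gene, Nqo1, a quinone reductase gene and NRF2 target, and Cd36, a fatty acid transporter gene, at 0.091, 0.11 and 0.14 log2 units. Nearest to Mt2 were Pdk4, a fasting-induced kinase of fuel choice, at 0.27, then Mt1 at 0.35 and Plscr2 at 0.37. In the other direction, Mt2 ranked 391 among the genes nearest to Mt1. Profiles were centred but not scaled, so the distance counts the size of the swings as well as their shape. Both genes ranked the 4 arrays in the same order, with wider steps for Mt2. Pdk4 read 6.40 and 7.24 in Baf60a LKO, against 6.88 and 8.26 in WT.

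**Figure D4:**
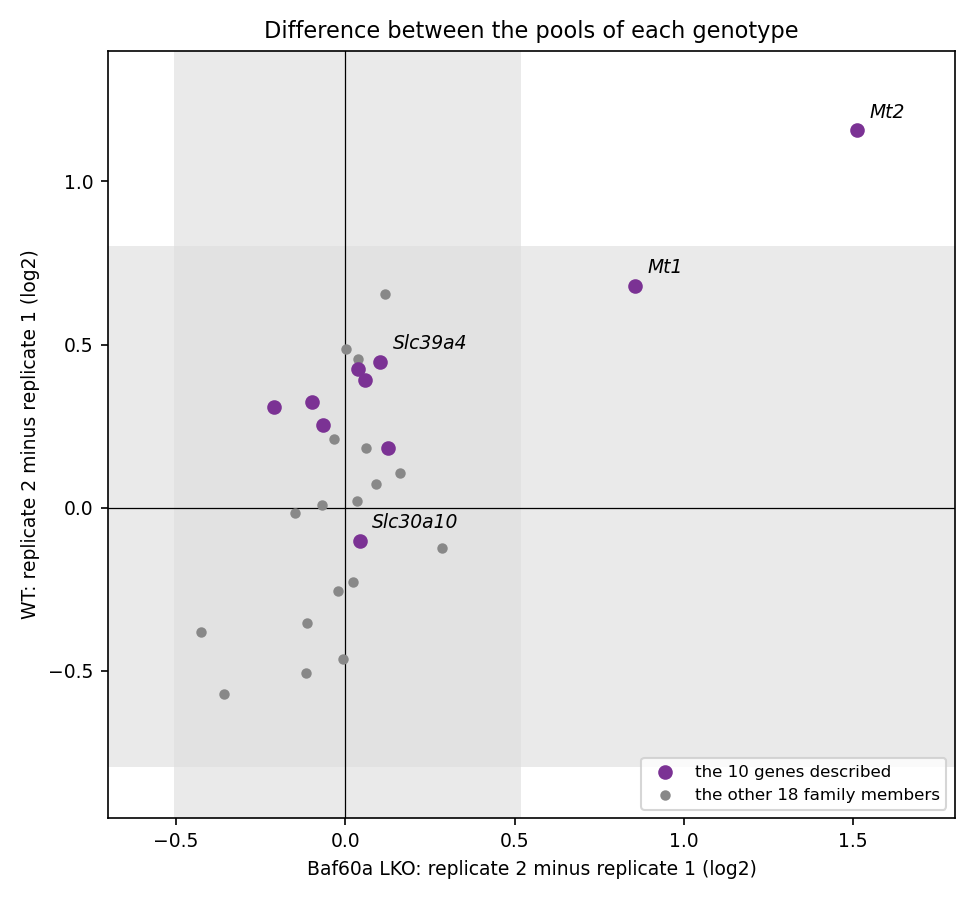
Replicate 2 minus replicate 1 on the log2 scale in Baf60a LKO (x axis) and in WT (y axis) for the 10 genes (purple) and the other 18 family members (grey points). Grey bands span the 1st to 99th percentile of all genes on each axis; Mt2 at 1.51 and 1.16 lies outside both bands, and Mt1 at 0.86 and 0.68 outside that of Baf60a LKO.

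Counted by the limma fit over all genes, 1 of the 10, Slc39a4, was past an adjusted p of 0.05, where 0.484% of all genes were, and 9 were not. Over probe sets it was 1 of 17, where 0.187% of all probe sets were. Since the genes were chosen with this contrast known, nothing is read from these counts. The groups did not overlap at 5 genes that were higher in Baf60a LKO and at 1 that was lower, against 22.8% and 19.6% of all genes. In all, 7 were higher and 3 lower, and their median difference was 0.11, where that of all genes was 0.00. Among the brighter 50% of genes, which held 9 of the 10, it was 0.038, below the 0.075 of all genes there. After quantile and loess normalization the median of the 10 was 0.044 and 0.023.

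The other members of both families and the 2 other metallothioneins were measured to see what the described genes share with them. Of these 18 genes, 0 passed over all genes by limma, where 0.484% of all genes did. The same held in the alternative fits that kept all 4 arrays, though that of the brighter 50% held only 10 of the 18. An unadjusted limma p under 0.05 was found for 10.2% of all genes and for 4 of these 18, all higher in Baf60a LKO. They were Slc39a6 (0.54 ± 0.18, adjusted p = 0.420), Slc39a11 (0.32 ± 0.13, adjusted p = 0.487), Slc30a6 (0.32 ± 0.12, adjusted p = 0.472) and Slc30a4 (0.29 ± 0.11, adjusted p = 0.487). Slc39a6, an importer of the plasma membrane, read 4.53 and 4.57 in Baf60a LKO, against 3.78 and 4.24 in WT, a difference of 0.14 with its probe sets averaged and of 0.31 without WT replicate 1. Slc30a4 and Slc30a6 encode exporters that load zinc into vesicles and the Golgi. Slc30a4 read 7.66 and 7.59 in Baf60a LKO, against 7.33 and 7.34 in WT. The median over the 16 transporters among them was 0.20, with 11 higher and 5 lower. Slc30a2 had the largest negative difference, -0.54 ± 0.23 (adjusted p = 0.510), at 3.07 and 2.71 in Baf60a LKO against 3.72 and 3.15 in WT, near background. It was -0.25 without WT replicate 1 and -0.83 without WT replicate 2. Mt3, the metallothionein of brain, and Mt4, that of stratified epithelia, were within the range of the bacterial probe sets, Mt3 at 3.08 on both Baf60a LKO arrays against 3.29 and 2.83 in WT.

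The 18 others lay between -0.54 and 0.54. Of the 10 genes Slc39a4, Mt2, Slc30a10, Mt1 and Slc39a5 lay outside that range, but Mt2, Mt1 and Slc39a5 by less than their standard errors. No test of that difference was made, because the 10 genes were picked with the contrast in view.

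The list of MTF1 and genes reported as its targets in mouse left out Mt1, Mt2 and Slc30a1, which are described above. In that list 4 of 5 were higher and none passed by limma, with a median of 0.29. At an unadjusted limma p under 0.05 was 1 of them, where 10.2% of all genes were. The targets left out, Mt1, Mt2 and Slc30a1, differed by -0.56, -0.98 and 0.026. Mtf1 itself read 6.53 and 6.64 in Baf60a LKO, against 6.19 and 6.36 in WT, a difference of 0.32 ± 0.13 (adjusted p = 0.490), and 0.13 when probe sets were averaged. Csrp1, a LIM protein gene induced by cadmium, differed by 0.30 ± 0.11 and Ndrg1, a stress-response gene, by 0.29 ± 0.13. With averaged probe sets these were 0.20 and 0.17, while Selenow, also listed, was 0.26 against 0.21. Slc39a10, an importer that MTF1 represses, read 5.33 and 5.44 in Baf60a LKO, against 4.84 and 5.50 in WT, and its difference of 0.21 ± 0.23 turned to -0.11 without WT replicate 1 and was 0.54 without WT replicate 2. Genes of the glucocorticoid response, which also raises Mt1 and Mt2, split 4 higher and 4 lower with a median of 0.064, and none passed by limma, also at an unadjusted p under 0.05. Tat, a tyrosine-degrading enzyme gene, differed by -0.34 ± 0.14 and the clock gene Per1 by 0.32 ± 0.15 (adjusted p = 0.510 and 0.532).

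Of 19 genes of IL-6 signalling and the acute phase, 17 were higher, 2 rose and 17 did not pass, with a median of 0.23. Saa2, a serum amyloid A gene, read 11.7 and 12.5 in Baf60a LKO, against 9.10 and 9.57 in WT (2.76 ± 0.29, limma, adjusted p = 0.0321), and Saa1 rose by 2.16 ± 0.23 (limma, adjusted p = 0.0321), where 0.236% of all genes rose. These near-identical genes can share probes. Both calls were lost when any 1 array was left out. Orm2, an orosomucoid gene, had the largest difference of the list, 3.11 ± 0.57 (adjusted p = 0.156), and ran from 2.25 to 3.97 with 1 array left out. Lcn2, the siderophore-binding lipocalin gene, read 8.17 and 10.2 in Baf60a LKO, against 7.44 and 8.36 in WT (1.29 ± 0.68, adjusted p = 0.563), and its difference was 0.27 with Baf60a LKO replicate 2 left out and 2.31 with replicate 1 of that genotype left out. Of the receptor and signalling genes of the pathway, Il6ra differed by 0.024 ± 0.15, Il6st by -0.031 ± 0.14 and Socs3 by -0.020 ± 0.14. Stat3 differed by 0.23 ± 0.12, at the median of the list. Mt1 and Mt2, which IL-6 can induce, lay lower on average, with overlapping groups at their brightest probe sets, and Slc39a14 was higher by 0.24 ± 0.13. Any part of IL-6 in these differences was not tested.

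**Figure D5:**
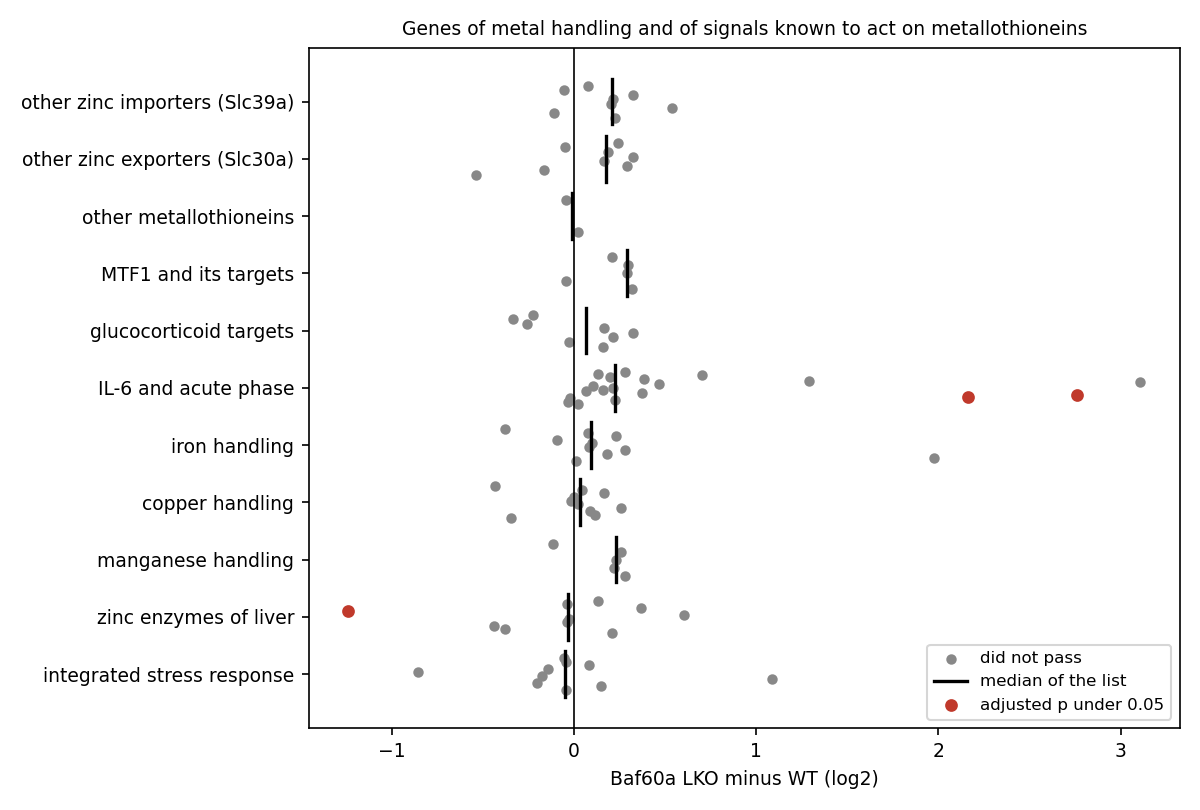
Difference between Baf60a LKO and WT on the log2 scale (x axis) for each measured gene of 11 lists (y axis; height within a row has no meaning). Grey points did not pass the limma fit, red points had an adjusted p under 0.05 (Saa1, Saa2 and Car3), and black bars are list medians, which lie between -0.05 and 0.29.

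Handling of the other metals was measured because these transporters share substrates. Of 5 genes of manganese handling outside the described transporters, 4 were higher and none passed by limma, also at an unadjusted p under 0.05. Slc11a1, a phagosomal metal transporter gene, differed by 0.28 ± 0.18 (adjusted p = 0.619), a value that was 0.094 once WT replicate 1 was dropped and 0.47 once WT replicate 2 was. Arg1, the manganese-dependent arginase of the urea cycle, read 13.2 on both Baf60a LKO arrays against 13.0 on both WT arrays, a difference of 0.26 ± 0.11 (adjusted p = 0.514). Of 10 iron genes 8 were higher and none passed, with a median of 0.092. At an unadjusted limma p under 0.05 were 2 of them, where 10.2% of all genes were. Hamp, the iron hormone hepcidin, differed by 0.010 ± 0.11, and Slc40a1, the iron exporter ferroportin, by 0.082 ± 0.12. Hamp2, a close copy of Hamp, read 12.9 and 13.3 in Baf60a LKO, against 11.6 and 10.7 in WT (1.98 ± 0.31, adjusted p = 0.114), but -0.14 on the probe set left when _x_at and _s_at probe sets were dropped. Hjv, the hemojuvelin gene that drives hepcidin, differed by -0.38 ± 0.12 (adjusted p = 0.409). Of 10 copper genes 6 were higher and 4 lower, none past the threshold (2 at an unadjusted limma p under 0.05, beside the same 10.2%). Among them were Sco2, a gene of copper delivery to cytochrome oxidase, at -0.43 ± 0.14, and the copper importer gene Slc31a1. The latter differed by -0.35 ± 0.14, and by -0.11 with averaged probe sets.

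Zinc-dependent enzymes of liver were followed as users of the metal. Of 10 measured, 1 fell and 9 did not pass, with 4 higher, 6 lower and a median of -0.035. Car3, a carbonic anhydrase gene of hepatocytes and fat cells, read 12.1 and 12.3 in Baf60a LKO, against 13.4 and 13.5 in WT (-1.24 ± 0.13, limma, adjusted p = 0.0321), where 0.247% of all genes fell. Averaging its probe sets gave -2.34. The call was lost when any 1 array was left out. Car2, another carbonic anhydrase gene, differed by 0.61 ± 0.13 (adjusted p = 0.215) and Alpl, tissue-nonspecific alkaline phosphatase, by -0.44 ± 0.13. Of 10 genes of the integrated stress response, which can induce Slc39a14, 3 were higher and 7 lower, and none passed. At an unadjusted limma p under 0.05 were 2 of them, where 10.2% of all genes were. Asns, asparagine synthetase, differed by 1.08 ± 0.33 and Chac1, a glutathione-degrading enzyme gene, by -0.85 ± 0.16 (adjusted p = 0.390 and 0.162). The Asns value was 0.61 with Baf60a LKO replicate 1 left out and 1.56 with replicate 2 of that genotype left out.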

How the data were processed

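RNA of liver was hybridised to 4 one-colour Affymetrix arrays, 2 pools per genotype, grouped by the genotype in their titles. The values the authors deposited are on the log2 scale, 1 per probe set and array, and the submitters' processing notes name affy, RMA and limma, with no versions. Array precision is limited by their number. Standard errors and p-values combine each gene's own spread between pools with the spread over all genes, through limma. They do not measure the gene's own spread alone.

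Of 45101 probe sets, 64 controls were left out. The platform annotation gave 34945 probe sets 1 symbol, 932 several and 9160 none; 34741 of the first were matched to RefSeq (GRCm38.p6) by Entrez number. No genome build is named for the values, so RefSeq served for names, neighbours and promoter sequences. Each gene was represented by its brightest probe set (18193 genes); further probe sets of the 10 genes come from a fit over 45037. The genotypes were fitted with lmFit and eBayes (limma 3.58.1, R 4.3.3, 2 residual and 3.54 prior degrees of freedom), 2-sided, Benjamini-Hochberg adjusted over all genes, threshold 0.05. Errors are standard errors unless marked SD. No filter on level was applied. Scripts were tested on simulated data. Figures used matplotlib 3.10.9 in Python 3.11.15.

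The genes, lists and alternatives were chosen with earlier results of these data known. Named are all 10 genes, Smarcd1, Mtf1, family members, and per list the genes past the threshold and up to 4 with the largest differences. Il6ra, Il6st, Socs3, Stat3, Hamp, Slc40a1, the cell type markers and neighbouring genes were added after their values were seen.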

Additional observations from a re-analysis of the deposited data

How the results depend on the processing

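With 88 genes past the threshold (43 higher, 45 lower), there were 142 after cyclic loess, 154 with array medians subtracted (91 higher, 63 lower), 216 with a trended and robust eBayes, 19 with the replicate block and 0 to 17 with 1 array left out (0 by limma without WT replicate 1, where 1630 had an unadjusted p under 0.05). Over probe sets 84 became 139 after quantile normalization, 162 after loess, 146 with medians subtracted, 173 with the trended and robust eBayes, 4 with the replicate block and 0 to 0 with 1 array left out; an array left out or a block leaves fewer degrees of freedom. Of the 10 genes 1 passed, and 2, Slc39a4 and Slc30a10, with medians subtracted, in the brighter 50%, with averaged probe sets or with the trended and robust eBayes, and 0 to 0 with 1 array left out. Their median difference of 0.11 ranged from -0.045 to 0.28 with 1 array left out. Of the 18 other family members, of which the brighter 50% held 10, 0 passed in any fit that kept all 4 arrays. The sign turned for Mt4 (-0.043), to 0.031 and 0.032 after quantile and loess normalization and over -0.30 to 0.21 with 1 array left out, for Mt3 (0.021) over -0.21 to 0.25, for Slc39a10 over -0.11 to 0.54, and for Atf3 (-0.18) over -0.47 to 0.12. It also turned for the transferrin receptor gene Tfrc (0.28), at -0.071 with averaged probe sets and -0.28 to 0.84 with 1 array left out, and for Hamp2, at -0.14 without _x_at and _s_at probe sets. The cause was not tested. Nothing in the labels says that replicate numbers pair pools; deviations of same-numbered pools correlated at 0.15 over probe sets, and under the replicate block Slc39a4 stayed past the threshold while Saa1 and Car3 did not (adjusted p = 0.0508 and 0.0951).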
